A study of Mus musculus with 6 samples.

Results

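The genes of the nuclear lamina and the inner nuclear membrane were examined for H3K79me2, histone H3 dimethylated at lysine 79. They were 9, Lmna, Lmnb1 and Lmnb2, Lbr, Sun1 and Sun2, Tmpo, Lemd3 and Banf1, chosen by name, and each was taken as the gene body plus 3 kb upstream in GENCODE mouse release 21 (build GRCm38, mm10). They are 9 of the 21938 protein-coding genes of that annotation, and 11863 of those genes carried a broad peak of the mark in at least 1 library. ChIP-seq, the sequencing of DNA immunoprecipitated with an antibody against the mark, was done on N2a cells, a mouse neuroblastoma cell line. The CTR cells carried a shControl plasmid and the NPM1 KD cells a plasmid with a short hairpin RNA against NPM1 (shNPM1), both for 3 days in vitro. Each group had 2 H3K79me2 libraries, which came from separate passages and separate transfection batches, and both groups were transfected, selected with puromycin and immunoprecipitated in the same way. A pooled input of each group was also sequenced and is not analysed here. A single hairpin was used, so an effect of NPM1 loss and an effect of that hairpin cannot be told apart.

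The nuclear lamina is a meshwork of lamins under the inner nuclear membrane that supports the nucleus and anchors heterochromatin. Lmna encodes the A-type lamins, and Lmnb1 and Lmnb2 encode the B-type lamins. Lbr encodes the lamin B receptor, a membrane protein that tethers heterochromatin and also acts as a sterol reductase. Sun1 and Sun2 encode inner membrane proteins that join nesprins across the envelope in the LINC complex. Tmpo (lamina-associated polypeptide 2) and Lemd3 (MAN1) encode LEM-domain proteins, which bind the small DNA-bridging protein encoded by Banf1. H3K79 is methylated by DOT1L, and the dimethyl mark lies over the start and the first part of transcribed genes.

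The measurements were peaks, not reads. Each gene was described in each library by a covered share and a peak height. The covered share is the percentage of the gene window under broad peaks. The peak height is the highest fold of any narrow peak in the window, that is, the pileup at its summit over the background that the peak caller MACS2 estimated in the same library. The fold is relative to each library's own background and gives no absolute level of the mark, and a wider or taller peak and a larger share of cells with the mark cannot be told apart. The broad lists held 34845 to 48764 peaks and the narrow lists 73801 to 88348. Values of single libraries are given in the order CTR 1, CTR 2, NPM1 KD 1 and NPM1 KD 2. As a stand-in for depth, the background pileup recovered from the low narrow peaks was 11.9, 7.65, 8.99 and 11.8, and the lists hold no read totals. Npm1 itself was 88.4% to 89.1% covered in the 4 libraries, which does not measure its knockdown. The sympathetic neuroblastoma markers Phox2a, Hand2, Gata3 and Isl1 carried a broad peak in all libraries, and 0 of 6 markers of other cell types did in any.

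H3K79me2 lay over all 9 genes in all 4 libraries, but its extent differed widely among them. In CTR cells the covered share ran from 20.1% of Sun2 to 100% of Banf1, against a median of 44.7% (quartiles 18.9% and 71.4%) over the 11863 windows with a peak. Lemd3, Lmnb1, Lbr and Tmpo were covered almost throughout, with 95.2% ± 0.706, 88.9% ± 3.56, 88.0% ± 1.41 and 87.9% ± 2.73 (SD, n = 2). Lmnb2 followed with 73.3% ± 1.72, then Lmna with 58.4% ± 2.29 and Sun1 with 53.8% ± 4.00. Lmnb1, Lbr and Tmpo did not differ beyond the spread between their libraries. Sun2 was the one member below the median of all windows, at percentile 26.2, and the other 8 were at percentiles 58.6 to 97.3. Bases covered in all 4 libraries summed to 220883 of the 248731 covered in any. By annotation this common part was mostly intron, from 69.8% of it in Tmpo to 95.1% in Lmnb1, except in the compact Banf1, where 54.2% was upstream sequence.

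**Figure D1:**
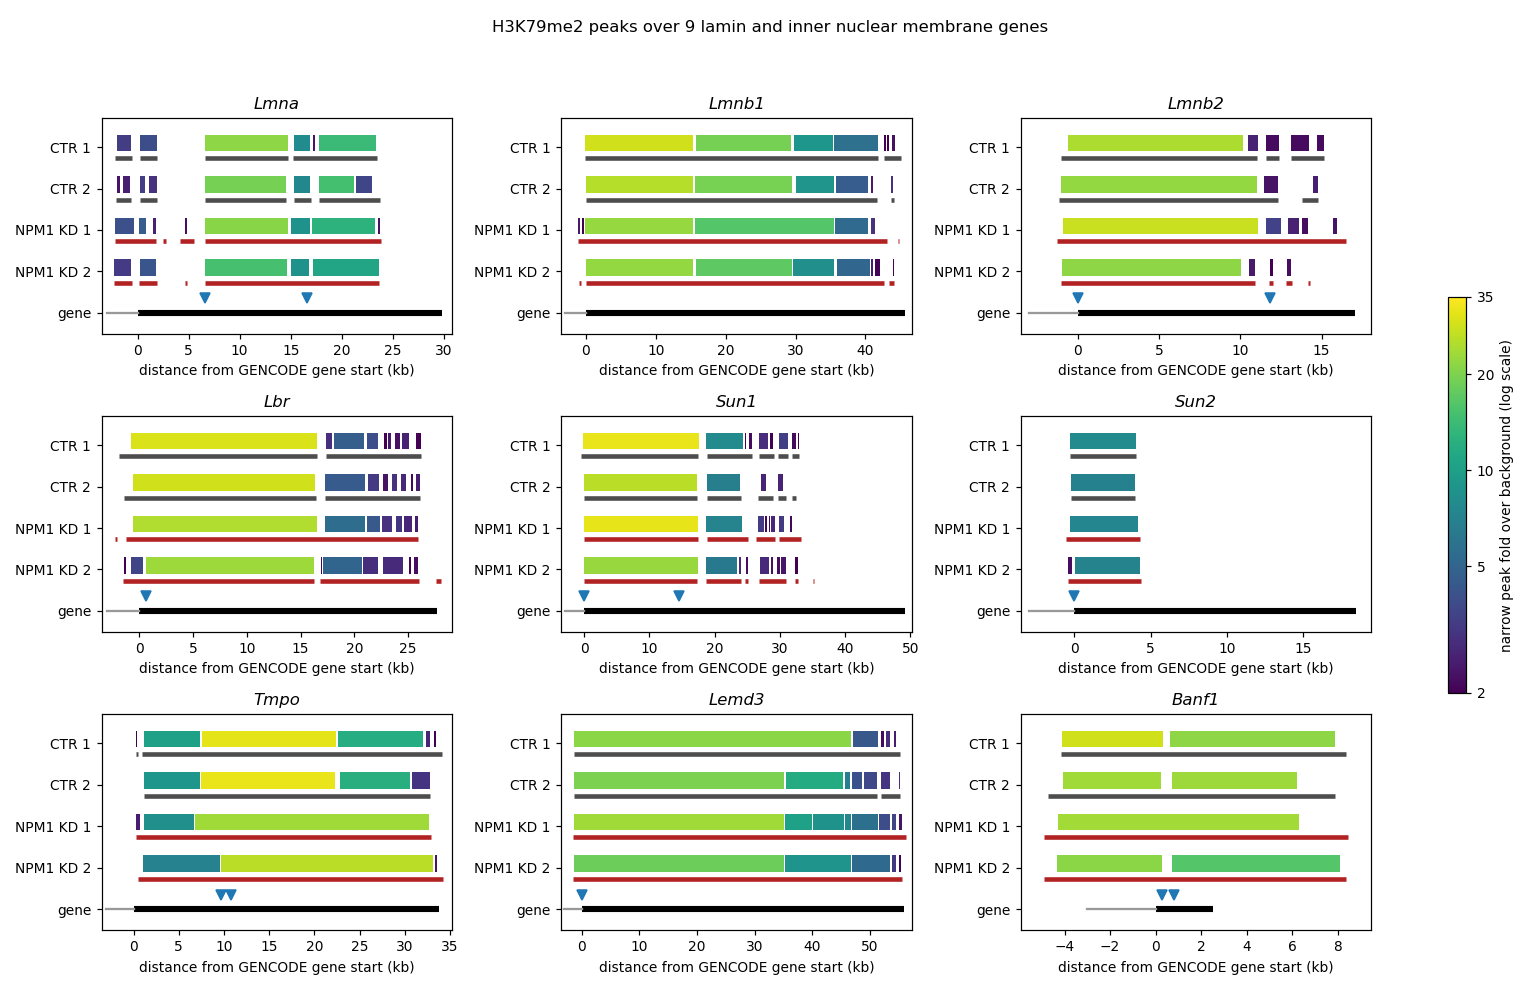
Peaks over the 9 genes, 1 panel a gene, against the distance from the GENCODE gene start in kb, with the direction of transcription to the right. Each library has boxes for narrow peaks, coloured by fold over background on a log scale, above lines for broad peaks (grey, CTR, red, NPM1 KD). The black bar is the gene, the thin grey line its 3 kb upstream, and triangles are RefSeq starts, which were not used for Lmnb1. The main domain of Lmna begins at an internal RefSeq start, that of Sun2 is the shortest, and that of Banf1 runs past both ends of the gene.

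The A-type lamin gene carried its main domain well inside the annotated gene. Lmna lies at chr3:88480147-88509956 on the minus strand, and GENCODE places its first start 6604 bp upstream of the first start that RefSeq lists. The stretch between those starts held weak peaks, with a highest narrow fold of 3.88, 3.35, 4.61 and 4.23. Downstream of the RefSeq start the highest fold was 21.5, 19.3, 21.1 and 15.0, and the summit lay 485 to 663 bp past that start in all 4 libraries. The broad domain, taken from the first broad peak with a fold of at least 5, opened at the RefSeq start. Its edge lay 45 bp before that start, 3 bp after it, 8 bp before it and 32 bp after it in the 4 libraries. Lower broad peaks lay further upstream in all 4 libraries. In both NPM1 KD libraries the domain was called as 1 peak, of 17207 bp and 17009 bp. In CTR 1 it was split into 2 peaks and in CTR 2 into 3, with a shared gap that ran from 14758 to 15257 bp of the GENCODE gene in the first and from 14516 to 15335 bp in the other. The last part of the gene, beyond 23803 bp, held no peak in any library.

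The B-type lamin genes were marked from their annotated starts. Lmnb1 (chr18:56707813-56753424, plus strand) carried a broad peak from 1120 bp upstream of its start to 14 bp inside it, depending on the library, and on to between 41594 and 43043 bp of its 45612 bp body. The downstream edge of its longest broad peak lay at 41869, 41594, 43043 and 42690 bp, further out in both NPM1 KD libraries. A weaker broad peak followed in every library and ended at 45045, 44042, 44827 and 44149 bp. By the last marked base the groups thus overlapped. Lmnb2 (chr10:80901203-80918245, minus strand) was covered over 74.5%, 72.0%, 88.7% and 63.2%. The NPM1 KD libraries thus stood on either side of the CTR pair. In NPM1 KD 1 its 1 broad peak spanned 17785 bp, whereas the longest peak of the other libraries was 11915 to 13491 bp. Its summit stayed 554 to 617 bp past the start.

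Lbr (chr1:181815335-181843046, minus strand) had 1 tall peak over its first part and weak peaks after it. The tall narrow peak ended between 16233 and 16543 bp in all 4 libraries. The longest broad peak ended at 16245 to 16543 bp in 3 of the libraries, but at 25904 bp in NPM1 KD 1, where the tall and weak parts were called as one. The covered share was 89.0%, 87.0%, 89.1% and 87.9%, so the groups overlapped. Its window also holds the 3′ end of the coding gene Dnah14 on the opposite strand, outside the tall peak.

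The SUN genes differed widely from each other. Sun1 (chr5:139200637-139249840, plus strand) had a domain of 17281 to 17798 bp that began at its start, followed by shorter and lower peaks to 32450 bp or beyond. A RefSeq start 14521 bp inside the gene fell within that first domain. Sun2 (chr15:79724070-79742536, minus strand) had 1 broad peak only, of 4371, 4246, 4826 and 4751 bp. Both NPM1 KD values were above both CTR values. Its narrow peak was also low, with a fold of 7.76, 6.94, 7.41 and 7.20, against 22.5 to 31.8 at Sun1. GENCODE places the start of Gm16576, a noncoding RNA of the opposite strand, 162 bp upstream of Sun2, and the peak covers both starts.

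The LEM-domain genes were covered over most of their length. Lemd3 (chr10:120923413-120979332, minus strand) was covered over 95.7%, 94.7%, 97.4% and 96.7%, and the groups did not overlap. Tmpo (chr10:91147571-91181315, minus strand) was covered over 89.9%, 86.0%, 89.0% and 90.5%, with overlap between the groups. The first RefSeq start of Tmpo lies 9696 bp inside the GENCODE gene, yet unlike Lmna the stretch before it was 88.1% to 97.6% covered. Its highest narrow fold there was 10.2, 9.02, 8.31 and 7.04. After the RefSeq start the fold was 31.0, 31.7, 23.3 and 26.1, the highest level of the members in CTR 2 and in NPM1 KD 2. The summit lay 1858 to 2215 bp past that start.

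Banf1 (chr19:5364638-5367168, minus strand) is the shortest of these genes, with 2531 bp, and its window was covered in full in every library, as were 299 (2.52%) of the 11863 windows. The broad peak ran from 4141 to 4913 bp upstream of the gene start to between 7891 and 8461 bp past it, well beyond the gene. The coding gene Eif1ad lies on the other strand, with its start 427 bp inside Banf1. It runs from there back across the Banf1 gene start, so the 2 genes overlap head to head. In CTR 1, CTR 2 and NPM1 KD 2 the narrow peaks parted around the Eif1ad start. They left positions 305 to 634, 241 to 700 and 267 to 702 past the Banf1 gene start uncovered. The taller peak was the one on the Eif1ad side. In NPM1 KD 1 a single narrow peak bridged these positions. The mark of the 2 genes cannot be told apart in these lists.

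The RefSeq (GRCm38.p6) promoter table used here was matched for 8 of the 9 genes, and Lmnb1 is not analysed here. The domains of Lmna and Tmpo were placed relative to an internal start. That of Sun2 was the shortest, and that of Banf1 covered starts on both strands. For this reason the 250 bases upstream of the first listed start are given for these 4 genes. They lie at chr3:88503353-88503602, chr10:91171620-91171869, chr15:79742537-79742786 and chr19:5366877-5367126, all on the minus strand, and read 5′ to 3′. Capitals mark matches on either strand to GGGCGG (the GC box), to CCAAT (the box of that name) and to TATAAA (the TATA box), where neighbouring matches can touch or overlap.
Lmna: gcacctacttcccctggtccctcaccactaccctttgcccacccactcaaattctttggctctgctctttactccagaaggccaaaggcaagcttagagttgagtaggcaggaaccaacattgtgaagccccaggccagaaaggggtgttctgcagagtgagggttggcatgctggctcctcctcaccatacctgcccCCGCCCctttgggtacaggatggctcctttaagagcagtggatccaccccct
Tmpo: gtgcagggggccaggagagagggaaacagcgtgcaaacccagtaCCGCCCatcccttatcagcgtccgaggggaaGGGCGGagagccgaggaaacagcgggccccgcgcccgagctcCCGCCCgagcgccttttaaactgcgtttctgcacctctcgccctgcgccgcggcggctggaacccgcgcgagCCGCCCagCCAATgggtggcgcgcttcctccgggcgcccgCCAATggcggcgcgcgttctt
Sun2: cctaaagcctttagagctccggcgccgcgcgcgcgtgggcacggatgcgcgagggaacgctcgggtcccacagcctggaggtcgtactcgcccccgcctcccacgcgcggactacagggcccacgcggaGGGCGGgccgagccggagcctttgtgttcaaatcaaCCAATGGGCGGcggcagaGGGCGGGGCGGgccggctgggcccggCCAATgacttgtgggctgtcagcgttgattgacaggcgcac
Banf1: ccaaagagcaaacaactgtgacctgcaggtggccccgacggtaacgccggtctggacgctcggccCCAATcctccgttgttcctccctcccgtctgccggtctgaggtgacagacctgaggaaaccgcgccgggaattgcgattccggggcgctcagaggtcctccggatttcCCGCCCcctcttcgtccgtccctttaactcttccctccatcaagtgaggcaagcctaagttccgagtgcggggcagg
The upstream sequence of Lmna held 1 CpG, that of Tmpo 32, that of Sun2 31 and that of Banf1 21, against a median of 6 over the 32851 RefSeq promoters. Of the 8 members with a sequence, 7 were above that median, all but Lmna. GGGCGG was found in 8 of the 8 sequences and in 32.7% of all promoters of that length, CCAAT in 6 (all but Lmna and Lmnb2) against 33.8%, and TATAAA in 0 against 12.4%. Sun2 and Tmpo each held 4 matches to GGGCGG and 2 to CCAAT, so the least and one of the most covered members had alike counts. The 32851 promoters include those of genes without the mark, and shares over marked genes alone were not computed. These matches describe the letters only.

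**Figure D2:**
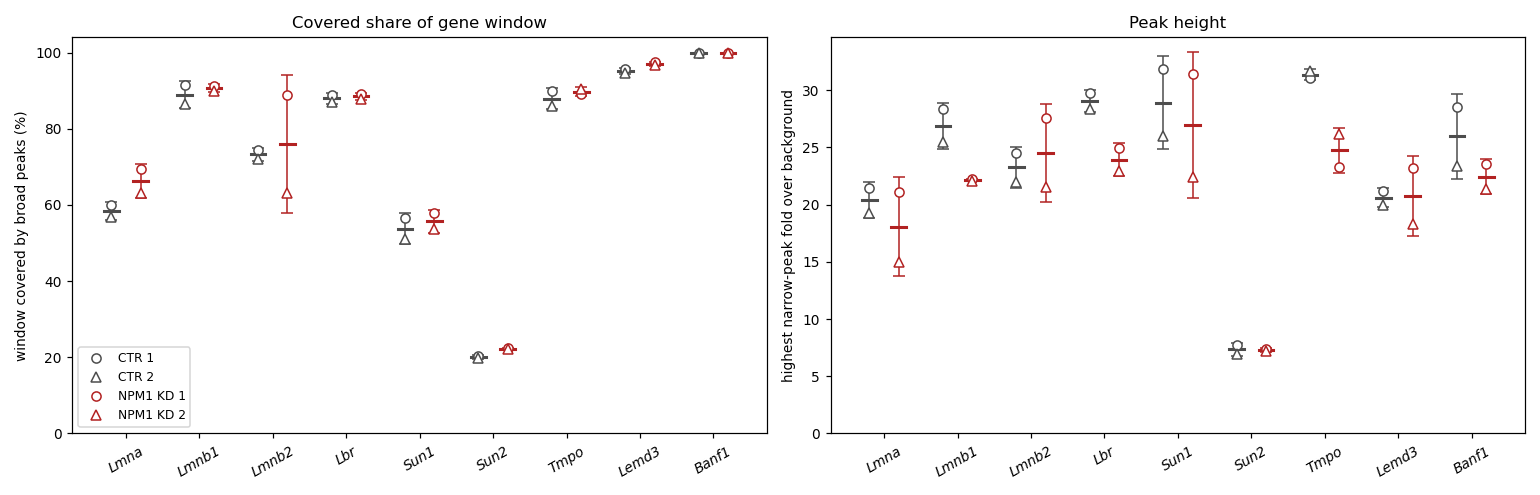
Covered share of the gene window in percent (left) and highest narrow-peak fold over background (right) for the 9 genes. Open circles and triangles are libraries 1 and 2 of each group, bars are group means and whiskers SD (n = 2). Covered shares of Lmna, Sun2 and Lemd3 are higher in both NPM1 KD libraries, and peaks of Lmnb1, Lbr and Tmpo are lower in both.

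The comparison of NPM1 KD with CTR asked whether the extent of the mark over these genes changed when NPM1 was reduced. There were 3 genes with more covered bases in both NPM1 KD libraries than in either CTR library, Lmna, Sun2 and Lemd3, and 0 had fewer in both. Across all 11863 windows 46.7% showed the first pattern and 2.89% the second, so the share of members (3 of 9) did not exceed the background. Lmna was covered over 60.0%, 56.7%, 69.3% and 63.2%, or 58.4% ± 2.29 against 66.2% ± 4.36 (SD, n = 2 each). Sun2 had 20.1% ± 0.412 against 22.3% ± 0.247, and Lemd3 had 95.2% ± 0.706 against 97.0% ± 0.473. For each of the 3 the exact two-sided permutation test gave p = 0.333, the smallest that 2 libraries against 2 can give. In the narrow lists Lmna, Sun2, Lemd3, Lbr and Tmpo had more covered bases in both NPM1 KD libraries, 5 of 9 against 42.1% of 11986 windows.

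No member passed the test fitted across all windows. By limma, fitted to log2 of the covered bp plus 1000 and adjusted by Benjamini-Hochberg, 1 of 11863 windows (0.00843%) had an adjusted p under 0.05, that of Ddc, which is no member and is named after its value was seen. At an unadjusted p under 0.05 there were 1806 windows, 1754 of them with more coverage in NPM1 KD, and 1 member, Sun2. Sun2 had a log2 change of 0.12 ± 0.03 (SE) and a limma adjusted p of 0.279, the smallest of the members, and Lmna had 0.17 ± 0.07 with an adjusted p of 0.372. The changes of the other members were 0.00 to 0.05, and that of Banf1 carries no information because its window was full. The median over the members was 0.03 and over all windows 0.08. The order turned with broad peaks of −log10 q of at least 5, where the medians were 0.071 and 0.052, and in the start window (3 kb upstream to 5 kb downstream of the start), where they were 0.041 and 0.022. CTR 2, with the lowest background pileup and the fewest peaks, had the lowest coverage in 7 of the 8 members that were not full, and the part of depth in these differences was not tested. Without CTR 1 the count of members above was 7 of 9, against 72.8% of all windows, and without NPM1 KD 2 it was 6, against 73.9%. Without CTR 2 it was 3, against 51.3%, and without NPM1 KD 1 it was 4, against 52.6%. The criterion is looser with a library left out. In the limma fit the single call over all windows was lost without any one library.

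Bases that set the groups apart were few. Over the 9 genes, 3945 bp were covered in both NPM1 KD libraries and in neither CTR library, 3336 bp of them inside the genes and 609 bp upstream. The reverse was true of 144 bp, all at Lbr. As shares of the bases covered in any library these were 1.59% and 0.0579%, against 2.85% and 0.317% summed over the 11863 windows, so the imbalance was also that of all windows. Lmnb1 with 1000 bp and Lmna with 792 bp held the most of the first kind, and Banf1 held 0. Among the 8 members whose longest broad peaks shared bases in all libraries, the upstream edge lay further out in both NPM1 KD libraries at 4, Sun2, Tmpo, Lemd3 and Banf1, against 29.2% of 10195 windows. At Tmpo it lay 961, 1154, 236 and 486 bp inside the gene. At Sun2 it lay 297, 237, 543 and 392 bp upstream of the start. In CTR 1 a separate weak broad peak of Tmpo lay at 240 to 475 bp, before the longest one. By the first marked base the groups therefore overlapped at Tmpo. The downstream edge of the longest broad peak lay further out at 3 members, Lmnb1, Sun2 and Lemd3, against 37.9% of those windows. At Lmnb1 weaker broad peaks lay beyond that edge in every library, and with them the groups overlapped. Sun2 and Lemd3 were longer at both ends.

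**Figure D3:**
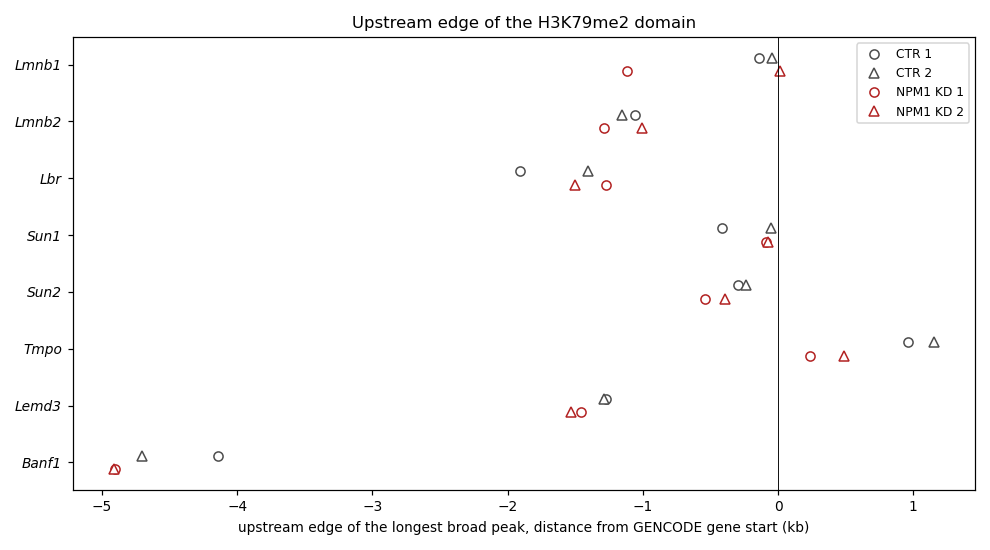
Upstream edge of the longest broad peak of 8 genes, in kb from the GENCODE gene start (negative is upstream), for each library (grey, CTR, red, NPM1 KD, circles and triangles, libraries 1 and 2). The red points of Sun2, Tmpo, Lemd3 and Banf1 lie left of both grey ones. A separate weak broad peak of Tmpo in CTR 1, at 240 to 475 bp, is not drawn. Lmna is left out because its longest peaks did not share bases.

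Peak height differed in the opposite direction at part of the genes. Tmpo had a highest fold of 31.0, 31.7, 23.3 and 26.1 (CTR 1, CTR 2, NPM1 KD 1, NPM1 KD 2). Lbr had 29.7, 28.3, 24.9 and 22.9, and Lmnb1 had 28.3, 25.4, 22.2 and 22.1. In these 3 genes both NPM1 KD peaks were lower than both CTR peaks, as in 28.0% of 11314 windows, and in 0 members were both higher, as in 8.91% of windows. The members had mostly tall peaks, and among the 3588 windows with a mean fold of at least 20 the shares were 47.2% and 1.28%. Lmnb2 had 24.5, 22.0, 27.5 and 21.5, and Lemd3 had 21.2, 20.01, 23.2 and 18.3, and in both the NPM1 KD libraries stood on either side of the CTR pair. Lmna, Sun1, Sun2 and Banf1 overlapped between the groups as well. Across all windows the centred change went with the height of the peak. Its median log2 value ran from 0.12 in windows with a fold under 5 to -0.20 in those of 30 or more, and after quantile normalisation, which was chosen after the data were seen, it was -0.0076 and -0.032 in the same bins.

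By limma on the centred log2 height, 15 of 11314 windows (0.133%) passed an adjusted p of 0.05 and 0 members did, with 925 windows and 0 members at an unadjusted p under 0.05. The smallest limma adjusted p among the members was 0.639, at Lbr, with a log2 change of -0.22 ± 0.12 (SE). Tmpo had -0.29 ± 0.16 and Lmnb1 -0.22 ± 0.13. The median over the members was -0.14 and over all windows -0.03. When the libraries were brought to the same distribution of heights (quantile normalisation) the median of the members was -0.04, Tmpo had -0.15, Lbr -0.09 and Lmnb1 -0.11, and the signs of Sun1 and Sun2 turned, that of Sun2 also without centring. With CTR 1, CTR 2, NPM1 KD 1 or NPM1 KD 2 left out, 129, 92, 29 and 37 windows passed, with 0 members in each case. Without CTR 1 the median was -0.035 over the members and -0.039 over all windows, and without NPM1 KD 2 it was -0.041 and -0.030.

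**Figure D4:**
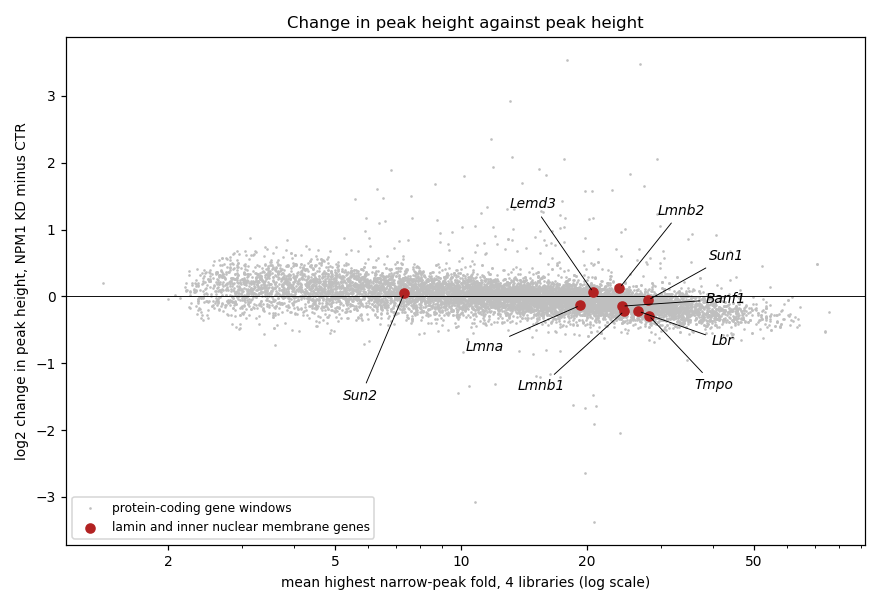
Log2 change in peak height (NPM1 KD minus CTR, centred per library) against the mean highest narrow-peak fold of the 4 libraries (log scale). Grey points are 11314 protein-coding gene windows and red points the 9 genes. The cloud slopes down to the right, and Tmpo, Lbr and Lmnb1 sit within it.

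Other genes of the nuclear envelope were read in 5 lists of 41 genes, of which 38 carried a broad peak and 36 in all libraries. Of the 38, 20 had more covered bases in both NPM1 KD libraries and 0 had fewer. By limma 0 passed the test of covered length or of height, and 11 of 36 had a lower peak in both and 2 a higher one. Over all windows these patterns were present in 46.7% and 2.89% for coverage and in 28.0% and 8.91% for height. The median log2 change in covered length was 0.11 over these genes. Among 7 LINC partners, which include the nesprins, Syne1 had a covered share of 0.974% ± 0.0476 for CTR against 1.47% ± 0.0863 for NPM1 KD (SD, n = 2 each, as for the genes that follow), and Syne3 over 45.1% ± 0.916 and 45.9% ± 2.19. The testis-expressed Sun3 and Sun5 had no broad peak in any library. Of the other 5 LEM-domain genes 4 carried the mark, from emerin (Emd) with 29.5% ± 1.23 and 35.4% ± 0.0287 to Ankle1 with 80.7% ± 21.2 and 82.8% ± 1.03. All 5 enzymes that process prenylated lamins carried it, from Fntb, a farnesyltransferase subunit, with 17.0% ± 1.60 and 18.6% ± 0.227 to the protease Rce1 with 87.8% ± 11.2 and 90.2% ± 5.39.

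By the mean of the 4 libraries, the 8 other nuclear membrane proteins ranged from Tmem43, with 35.5% ± 0.394 and 37.3% ± 1.60 in the same order, to Tmem201 with 82.5% ± 0.722 and 80.7% ± 2.71. The 16 nuclear pore genes ran from the scaffold nucleoporin Nup160, with 15.6% ± 4.19 and 20.3% ± 2.43, to Nup50 with 100% in all libraries. Of the 16, 8 had more covered bases in both NPM1 KD libraries, against 46.7% of all windows, and 9 had a lower peak in both, against 28.0% of all windows and 47.2% of those with tall peaks.

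The genes whose covered shares over the 4 libraries were nearest to those of each lamin gene, among coding genes of similar length, were Setd1b for Lmna, Bicd2 for Lmnb1 and Naxd for Lmnb2. Setd1b had 58.3%, 56.6%, 69.5% and 62.9%, a distance of 1.72 percentage points from Lmna among 1576 candidates. Bicd2 lay 1.70 percentage points from Lmnb1 among 1280, and Naxd 9.52 percentage points from Lmnb2 among 1459.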

How the data were processed

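H3K79me2 ChIP-seq peak lists of 4 libraries of N2a cells were used, with a broad and a narrow list called in each. Per the methods and the submitters' processing notes, the authors aligned reads to mm10 with Bowtie2 2.3.4.1, removed reads of low mapping quality and called peaks with MACS2, listed as version 2.2.6 in the notes. The peak names of the narrow lists do not mention that filter. The deposited fold is the ratio of pileup to background. It belongs to the summit in narrow lists but is a mean over the whole peak in broad lists, and merging peaks therefore changes it. The authors deposited −log10 p and −log10 q straight from MACS2, and the deposited score is a rescaled −log10 q. The score was not used. The lists hold no counts, so the read-based test of the study was not run.

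Windows were each gene body of GENCODE mouse release 21 plus 3 kb upstream. Limma 3.58.1 (R 4.3.3) tested covered length as log2(bp + 1000) over 11863 coding windows with a broad peak, and height on the log2 of the highest narrow fold, centred on the library median, over 11314 windows with a narrow peak in all libraries. Both used Benjamini-Hochberg adjustment over all windows and a threshold of 0.05. Group values are mean ± SD, and single values had exact two-sided permutation tests. The background pileup was solved from the fold and p of 4000 low narrow peaks per library. Python 3.11.15, numpy 2.4.6, pandas 2.3.3, scipy 1.17.1 and matplotlib 3.10.9 were used, and the fit was tested on simulated data. The members and lists were chosen with earlier results of these data known. The text names every member, the genes of lowest and highest mean covered share of every other list, and, for each lamin gene, the gene of similar length at the smallest Euclidean distance in covered share. Alternatives included other lists, windows, filters and scalings, a replicate block and leaving out each library. Results for some cell type markers are not reported here.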

Additional observations from a re-analysis of the deposited data

How the results depend on the processing

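Depth, known only as a relative background pileup of 7.65 to 11.9, limits short or weak peaks, and 2 libraries a group limit the tests. No member passed the threshold under any alternative run. The calls over all windows for covered length (1 as reported) were 0 with the narrow lists, 21 with broad peaks of −log10 q of at least 5, 0 with lists of equal size, 0 in the start window (3 kb upstream to 5 kb downstream), 0 without a filter, 5 over all annotated genes and 0 to 0 with a library left out. Members with more coverage in both NPM1 KD libraries (3 as reported) were 5 in the narrow lists (42.1% of all windows), 5 in the start window (29.3%) and 3 to 7 with a library left out (51.3% to 73.9%), and members with less were 0 to 1 (5.30% to 14.4%). The median log2 change in covered length of the members (0.03) was 0.071 with the stricter peaks (0.052 over all windows) and 0.00 to 0.060 with a library left out. Calls for height (15 as reported) were 47 on the broad lists, 7 without centring and 29 to 129 with a library left out, where the lone library of a group is assumed to vary like the other group. The median log2 change in height of the members (-0.14) was -0.19 without centring, -0.055 in the start window, -0.040 after quantile normalisation and -0.18 to -0.035 with a library left out. Of 63 alternative values of single members, 57 moved by less than 1 SD between replicates or not at all and 6 by more. Of the 63 values 46 were positive and 11 negative, whereas the reported difference was positive in 8 members. The cause was not tested.

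Same-numbered libraries deviated together, with a correlation of 0.26 for covered length and 0.20 for height across windows, but with 2 pairs and no statement that a number marks a shared batch they were not treated as paired. With a replicate block the calls were 0 for covered length and 20 for height, with 0 members.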
